A study of Homo sapiens with 4 samples.

Results

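Antisense RNAs are transcripts read from the DNA strand opposite a gene, and by convention each carries the name of that gene, its sense partner, followed by AS and a digit. Of 1350 gene symbols of this form in HCT116 cells, 187 had a mean of at least 1 FPKM (fragments mapped to a transcript, scaled by its length and by the depth of the library) over 4 libraries, and these 187 antisense RNAs are described here. EPB41L4A-AS1 and the antisense RNAs of HOX genes were left out of the choice by name. They would have brought the number of symbols to 1361, and 6 of them reached the same level. The other 1163 symbols stayed below 1 FPKM, with 563 of them listed at 0 in all 4 libraries, 315 above 0 and below 0.1 FPKM, and 285 between 0.1 and 1 FPKM. The members were chosen by their symbol and by the mean FPKM over all 4 libraries, so that level is a description and not a finding.

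HCT116 is an established human colon cancer cell line. The tested cells, labelled shARID1A, carried a knockdown of ARID1A by a short hairpin RNA, and the comparison cells, labelled CTR, were called control with no further detail of what they carried. Each group had 2 libraries of total RNA, and nothing in the labels says that these came from separate cultures or clones, so the p-values below measure only the spread between these libraries, which may be technical. The study stated an interest in how ARID1A relates to immune functions.

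ARID1A binds DNA as part of the SWI/SNF complex, which slides and evicts nucleosomes at promoters and enhancers. Many antisense RNAs start at the same CpG-rich promoter as their sense partner and run away from it, while others begin inside or beyond the partner and cross its body. Opposite-strand pairs whose 5′ ends face or overlap each other are called head to head here, whatever the distance between their starts. The name alone therefore does not show a shared promoter. Promoter antisense transcripts are often cut short and destroyed by the nuclear exosome, and the ones that persist as stable RNA include regulators such as OIP5-AS1, the human counterpart of zebrafish cyrano. The library kit is not stated to keep strand. Where an antisense RNA and its partner overlap, their reads therefore cannot be told apart by strand, and the FPKM of each may hold reads of the other.

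A promoter shared by a head-to-head pair is easiest to see where the 2 loci do not overlap at all. In 4 such pairs both genes passed the test between shARID1A and CTR libraries, and their promoters are shown for that reason (ZRANB2-AS2 reached 1 FPKM in CTR libraries alone). Each line is 300 bases of RefSeq sequence on GRCh38.p14, 5′ to 3′ on the strand of the gene whose window it is, and the capitals mark the bases between the start of the antisense RNA and the start of its partner as the authors' loci place them.
ZNF561 with ZNF561-AS1: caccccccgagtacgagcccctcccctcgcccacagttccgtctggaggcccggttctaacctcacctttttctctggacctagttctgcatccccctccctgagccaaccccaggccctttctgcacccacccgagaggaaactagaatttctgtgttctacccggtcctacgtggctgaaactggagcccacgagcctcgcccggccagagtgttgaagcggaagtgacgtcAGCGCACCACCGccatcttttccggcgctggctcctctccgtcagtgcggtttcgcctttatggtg
USP46 with USP46-AS1: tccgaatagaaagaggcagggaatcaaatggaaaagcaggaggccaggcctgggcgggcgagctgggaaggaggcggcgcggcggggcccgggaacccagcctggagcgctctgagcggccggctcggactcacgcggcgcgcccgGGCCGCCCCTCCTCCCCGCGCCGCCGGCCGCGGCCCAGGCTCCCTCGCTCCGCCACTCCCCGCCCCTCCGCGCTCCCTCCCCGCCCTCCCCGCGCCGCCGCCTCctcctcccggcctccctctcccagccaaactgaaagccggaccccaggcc
SSTR5-AS1: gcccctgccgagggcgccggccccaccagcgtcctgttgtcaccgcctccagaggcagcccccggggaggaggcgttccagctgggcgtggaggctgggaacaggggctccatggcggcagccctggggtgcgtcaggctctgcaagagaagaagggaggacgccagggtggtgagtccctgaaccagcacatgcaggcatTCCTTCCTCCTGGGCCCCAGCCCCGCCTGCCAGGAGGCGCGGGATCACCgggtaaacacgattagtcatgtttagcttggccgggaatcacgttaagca
ZRANB2-AS2: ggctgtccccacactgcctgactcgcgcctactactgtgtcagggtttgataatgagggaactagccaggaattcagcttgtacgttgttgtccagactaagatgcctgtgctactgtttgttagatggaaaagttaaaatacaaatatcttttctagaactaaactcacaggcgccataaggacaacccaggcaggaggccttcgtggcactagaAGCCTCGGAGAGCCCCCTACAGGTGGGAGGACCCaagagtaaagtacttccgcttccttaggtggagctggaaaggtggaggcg
The ZNF561 window lies at chr19:9621183-9621482 on the minus strand, the USP46 window at chr4:52659252-52659551 on the minus strand, the SSTR5-AS1 window at chr16:1078682-1078981 on the minus strand, and the ZRANB2-AS2 window, under the newer symbol ZRANB2-DT, at chr1:71081074-71081373 on the plus strand. The starts of the paired genes were 13 bp apart for ZNF561-AS1, 105 bp for USP46-AS1, 50 bp for SSTR5-AS1 and 35 bp for ZRANB2-AS2. The USP46 window held 76.7% G and C with 36 CpG sites, against 61.3% and 20 sites for ZNF561, 67.0% and 18 sites for SSTR5-AS1, and 50.7% and 8 sites for ZRANB2-AS2. None of the 4 windows held TATAAA or CCGGAAG on either strand, which says only that these letters are not in these windows.

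The knockdown itself was visible in the targeted gene. ARID1A (chr1:26693236-26782104) stood at 7.05 and 6.13 FPKM in shARID1A libraries, against 11.1 and 11.4 FPKM in CTR libraries. Both shARID1A libraries were below both CTR libraries, with a log2 change of -0.69 (SE 0.0774, limma adjusted p = 0.00438) on the log2(FPKM + 1) scale used throughout. An exact permutation test, two-sided, gave p = 0.333, and 2 libraries against 2 allow none smaller. The normalizing totals, estimated from the steps between low values, were 75000000 and 74750000 fragments in shARID1A libraries and 69000000 and 70750000 in CTR libraries, so that 1 FPKM over 1 kb rests on 69 to 75 fragments. Mitochondrially encoded RNA took 6.04% and 5.65% of summed FPKM in shARID1A libraries and 4.35% and 4.29% in CTR libraries, and its part in the results below was not tested. Of 6 colon epithelial markers, CDX1 was listed at 0 in all libraries and VIL1 was at most 0.207 FPKM in any library. The 6 summed to 2710 and 2770 FPKM in shARID1A libraries against 2100 and 2040 FPKM in CTR libraries. Most of that sum was KRT8 and KRT18, which rose (log2 change 0.70 and 0.42, limma adjusted p = 0.000768 and 0.00288). CDH1 did not pass the test (limma adjusted p = 0.214), and EPCAM, an epithelial adhesion protein, fell by 1.11 on the log2 scale (limma adjusted p = 0.000363). Leukocyte markers summed to 0.068 and 0.0879 FPKM in shARID1A libraries and 0.0753 and 0.054 FPKM in CTR libraries, with CD3E and TYROBP at 0. Endothelial markers summed to 0.167 and 0.133 FPKM in shARID1A libraries against 0.167 and 0.171 FPKM in CTR libraries, and the 4 fibroblast markers to 5.89 and 6.16 FPKM in shARID1A libraries against 4.84 and 3.58 FPKM in CTR libraries. Nearly all of the fibroblast sum was COL1A1, which had 5.89 and 6.15 FPKM in shARID1A libraries against 4.81 and 3.58 FPKM in CTR libraries and did not pass the test (limma adjusted p = 0.0518). COL1A2, DCN and LUM were each at most 0.0136 FPKM in any library.

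Antisense RNAs were mostly faint beside their partners. The median antisense RNA had a mean of 2.86 FPKM, whereas the median partner had 10.8 FPKM over the 185 antisense RNAs whose partner has a row in the tables. Only 28 antisense RNAs averaged 10 FPKM or more, 31 lay between 5 and 10, 68 between 2 and 5, and 60 between 1 and 2 FPKM. Since FPKM is a level per length, genes may be set side by side on it. The antisense RNA was above its partner in 60 pairs, and the partner was more than 10-fold above the antisense RNA in 52 pairs. At the extremes, FGD5-AS1 was 1070-fold above FGD5, a guanine exchange factor of endothelial cells, while TPT1-AS1 was 351-fold below TPT1, the translationally controlled tumour protein. The partners of TMEM202-AS1 and KCNK15-AS1 were listed at 0 in every library. For 2 antisense RNAs no partner row was found under the prefix symbol, and these have no partner values here. All 187 antisense RNAs together summed to 959.3 and 998.7 FPKM in shARID1A libraries and 1023.5 and 1027.1 FPKM in CTR libraries, which is 0.122% and 0.123% of all FPKM against 0.13% and 0.131% in CTR libraries.

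**Figure D1:**
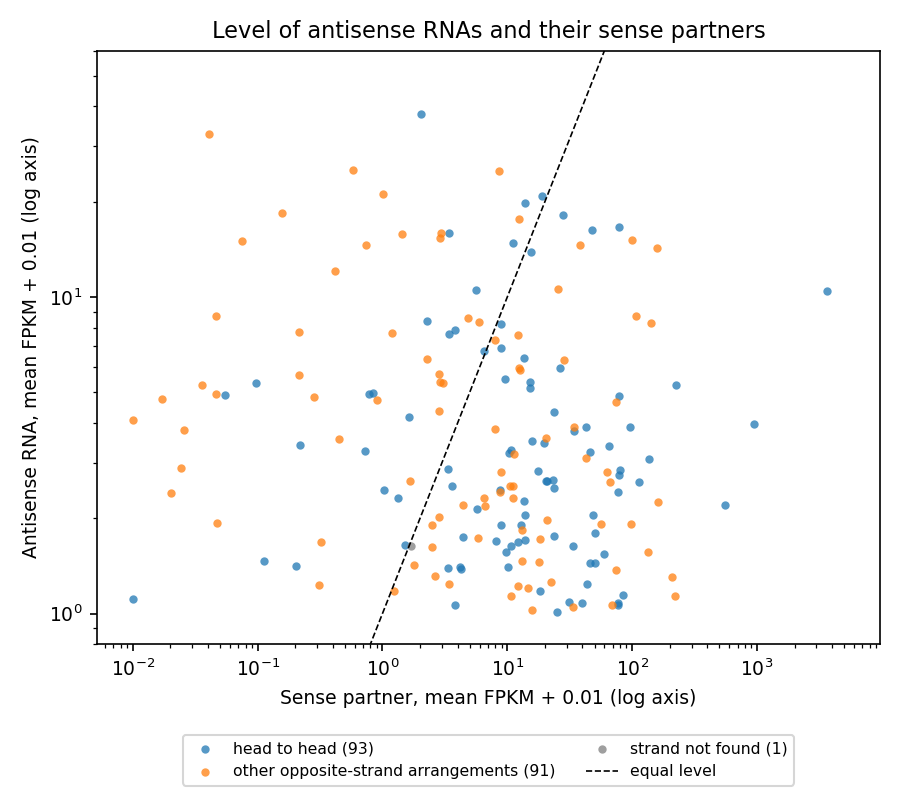
Mean FPKM over 4 libraries of each antisense RNA (vertical, log axis) against its sense partner (horizontal, log axis), with 0.01 added to both so that values of 0 can be drawn, for 185 pairs coloured by arrangement. The dashed line marks equal level, and the antisense RNA is above its partner in 60 pairs.

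At the edge of the choice, YTHDF3-AS1 (mean 1.005 FPKM), STIM2-AS1 (1.020 FPKM) and NQO2-AS1 (1.043 FPKM) lay just inside and SAPCD1-AS1 (0.997 FPKM), WEE2-AS1 (0.993 FPKM) and EML2-AS1 (0.983 FPKM) just outside. STIM2-AS1 passed through a single library, with 0.434 and 0.377 FPKM in shARID1A libraries against 3.27 and 0 FPKM in CTR libraries. Group means reached 1 FPKM in both groups for 174 antisense RNAs, in shARID1A libraries alone for 6 and in CTR libraries alone for 7. The last 13 had to differ in mean to be chosen, and 4 of them passed the test. These are HDHD5-AS1, ZRANB2-AS2 and ZBED3-AS1, which reached 1 FPKM only in CTR libraries, and DNAH17-AS1, which reached it only in shARID1A libraries, so their differences are partly set by the choice of members.

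Among the 10 antisense RNAs of highest level 3 fell and 2 rose, all by small amounts. Of all tested features between 10 and 50 FPKM, 42.1% passed the same test. THAP9-AS1, opposite the transposase-derived gene THAP9, had 33.8 and 32.3 FPKM in shARID1A libraries against 39.3 and 46.0 FPKM in CTR libraries. Both shARID1A libraries were lower, by a log2 change of -0.36 (SE 0.0823, limma adjusted p = 0.0293). FGD5-AS1 had 29.2 and 27.8 FPKM in shARID1A libraries against 37.8 and 36.6 FPKM in CTR libraries, again without overlap (log2 change -0.38, SE 0.0456, limma adjusted p = 0.00535), and FGD5 itself was at most 0.0381 FPKM in any library. OTUD6B-AS1, opposite a deubiquitinase gene, had 18.1 and 18.2 FPKM in shARID1A libraries against 21.5 and 21.6 FPKM in CTR libraries (log2 change -0.24, limma adjusted p = 0.0134), the groups being apart by more than their internal spread. Its partner OTUD6B moved the same way, with 11.9 FPKM in both shARID1A libraries against 16.1 and 15.3 FPKM in CTR libraries (log2 change -0.38, limma adjusted p = 0.00656). ZFPM2-AS1 rose, with 19.4 and 21.0 FPKM in shARID1A libraries against 15.9 and 17.4 FPKM in CTR libraries (log2 change 0.26, limma adjusted p = 0.0373), while its partner ZFPM2, a cofactor of GATA proteins, was at most 0.183 FPKM in any library. SVIL-AS1 rose too, with 19.8 and 18.5 FPKM in shARID1A libraries against 15.6 and 16.6 FPKM in CTR libraries (log2 change 0.24, limma adjusted p = 0.0319). Its partner SVIL, which encodes the actin-binding protein supervillin, had 3.22 and 11.1 FPKM in shARID1A libraries against 9.75 and 26.0 FPKM in CTR libraries. SVIL was higher in replicate 2 than in replicate 1 of either group, the groups overlapped, and it did not pass the test (limma adjusted p = 0.196).

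Of these calls, that of FGD5-AS1 held without any one library. The THAP9-AS1 call was lost without CTR replicate 2 (limma adjusted p = 0.0798), shARID1A replicate 1 (0.0782) or shARID1A replicate 2 (0.113). The calls of OTUD6B-AS1, ZFPM2-AS1 and SVIL-AS1 were lost whichever library was left out, with limma adjusted p of 0.054 to 0.0787, 0.0625 to 0.152 and 0.0612 to 0.142. OTUD6B lost its call without CTR replicate 1 only (0.0519).

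The other 5 of the 10 did not pass the test. OIP5-AS1 had 24.3 and 20.3 FPKM in shARID1A libraries against 26.5 and 29.3 FPKM in CTR libraries (log2 change -0.32, limma adjusted p = 0.065), and without shARID1A replicate 1 it was called (log2 change -0.44, adjusted p = 0.0357). OIP5, a factor for loading the centromere histone CENP-A, rose, with 10.2 and 9.40 FPKM in shARID1A libraries against 7.85 and 6.74 FPKM in CTR libraries (log2 change 0.38, limma adjusted p = 0.0288), a call lost whichever library was left out (0.0503 to 0.115). NUTM2A-AS1 had 20.5 and 29.3 FPKM in shARID1A libraries against 25.6 and 25.7 FPKM in CTR libraries. Its shARID1A libraries lay on either side of the CTR libraries (log2 change -0.06, limma adjusted p = 0.793), and the change was 0.19 without shARID1A replicate 1 and -0.31 without shARID1A replicate 2, the second of these called (adjusted p = 0.0324). ELFN1-AS1, which lies inside the gene of a synaptic membrane protein, had 21.9 and 21.6 FPKM in shARID1A libraries against 19.8 and 21.4 FPKM in CTR libraries (log2 change 0.08, limma adjusted p = 0.31). MAPKAPK5-AS1 had 20.9 and 23.3 FPKM in shARID1A libraries against 18.5 and 20.5 FPKM in CTR libraries (log2 change 0.17, limma adjusted p = 0.15). MAPKAPK5, a stress-activated protein kinase, rose by a log2 change of 0.31 (limma adjusted p = 0.0467), a call that held without CTR replicate 2 and was lost in the other 3 cases (0.113 to 0.159). SMARCA5-AS1, opposite the ATPase of the ISWI remodelling complexes, had 18.0 and 20.4 FPKM in shARID1A libraries against 17.3 and 16.8 FPKM in CTR libraries (log2 change 0.16, limma adjusted p = 0.14). SMARCA5 itself had 29.4 and 28.2 FPKM in shARID1A libraries against 27.3 and 26.8 FPKM in CTR libraries (limma adjusted p = 0.182), and 66.7% of the exon bases of SMARCA5-AS1 lie in SMARCA5 exons.

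Over all 187 antisense RNAs, 47 (25.1%) passed a limma adjusted p of 0.05, where 37.1% of all 13605 tested features did. Of the 187, 19 were called up and 28 called down, both smaller shares than the 18.2% called up and 18.9% called down of all features. The median log2 change of the antisense RNAs was -0.048, with an interquartile range of -0.287 to 0.168, and that of all features was -0.003. Sizes were modest, with a median absolute log2 change of 0.231 for antisense RNAs and 0.184 for all features, and 1 antisense RNA past a log2 change of 1 in either direction against 336 of all features. Libraries of the groups did not overlap for 122 antisense RNAs (65.2%, against 72.3% of all features), with shARID1A libraries above in 51 and below in 71. Among the 174 antisense RNAs at 1 FPKM or more in both groups, 43 were called, 18 up and 25 down. With quantile normalization the split of calls was 24 up and 25 down. Long intergenic RNAs with a LINC symbol, a like class of noncoding RNA, had 32 of 112 called (28.6%), 7 up and 25 down.

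Calls were scarcest among faint genes. Between 1 and 2 FPKM, 6 of 60 antisense RNAs were called (10.0%) against 245 of 1483 features (16.5%). Those 6 include the 4 called antisense RNAs that reached 1 FPKM in 1 group alone, whose differences are partly set by the choice. The features beside them passed the same filter on mean level. Between 2 and 5 FPKM the counts were 19 of 68 (27.9%) against 621 of 2269 (27.4%), between 5 and 10 FPKM 12 of 31 (38.7%) against 803 of 2392 (33.6%), and between 10 and 50 FPKM 10 of 28 (35.7%) against 2258 of 5363 (42.1%). Antisense RNAs had the larger share in the middle ranges and the smaller one at either end, and the difference was not tested. With 1 library left out the fit made fewer calls over all features, 1900 to 3259 in place of 5046. Of the 47 antisense calls, 10 held without any one library, 37 were lost in at least 1 of the 4 cases and 14 in all 4. The 10 were DGUOK-AS1, ADIRF-AS1, PPP1R14B-AS1, VASH1-AS1, MRVI1-AS1 and NR2F2-AS1, which rose, and FGD5-AS1, PRKAG2-AS1, WARS2-AS1 and IRX4-AS1, which fell.

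**Figure D2:**
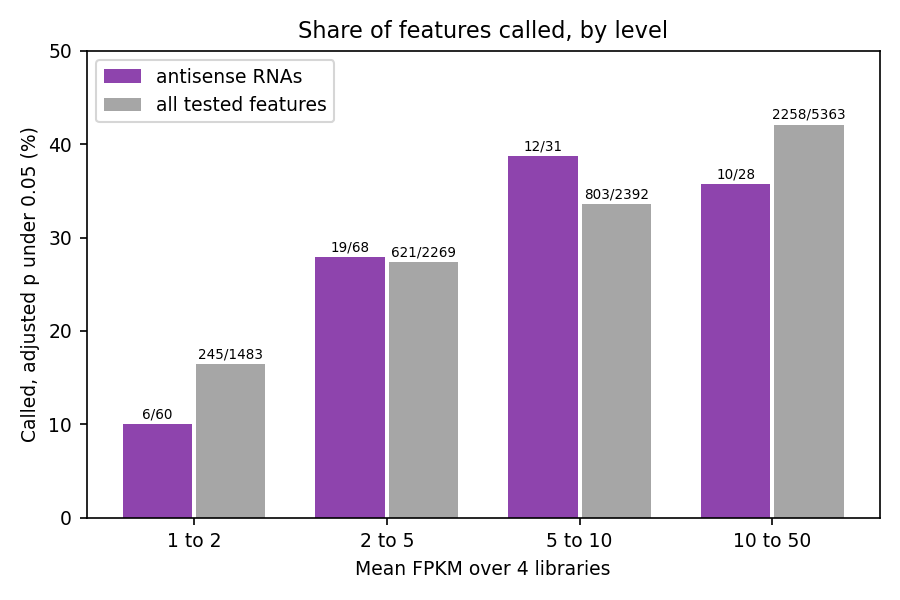
Share of antisense RNAs and of all tested features with a limma adjusted p under 0.05 (vertical, percent, from 0), in 4 ranges of mean FPKM over the 4 libraries (horizontal). The numbers over the bars are called and tested features, from 6 of 60 antisense RNAs at 1 to 2 FPKM to 10 of 28 at 10 to 50 FPKM. Of the 6, 4 reached 1 FPKM in 1 group alone, so their differences are partly set by the choice.

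The largest rise belonged to MRVI1-AS1 (chr11:10541258-10599936, plus strand), opposite the gene of a cGMP kinase substrate that restrains calcium release. It had 3.96 and 3.66 FPKM in shARID1A libraries against 1.46 and 1.36 FPKM in CTR libraries. Both shARID1A libraries were far above both CTR libraries (2.70-fold in the means, log2 change 1.0, SE 0.0895, limma adjusted p = 0.00254). DGUOK-AS1 (chr2:73947322-73981441, minus strand) had 12.1 and 11.5 FPKM in shARID1A libraries against 6.01 and 5.16 FPKM in CTR libraries, 2.11-fold in the means (log2 change 0.96, SE 0.0825, limma adjusted p = 0.00226). DGUOK, the mitochondrial deoxyguanosine kinase, was far more abundant and moved little, with 109 and 114 FPKM in shARID1A libraries against 103 and 106 FPKM in CTR libraries (limma adjusted p = 0.15). PPP1R14B-AS1 (chr11:64245961-64248218, plus strand) had 5.26 and 4.79 FPKM in shARID1A libraries against 2.65 and 2.82 FPKM in CTR libraries (log2 change 0.69, SE 0.081, limma adjusted p = 0.00495). Its partner PPP1R14B, an inhibitor of protein phosphatase 1, had 94.8 and 104 FPKM in shARID1A libraries against 90.8 and 93.8 FPKM in CTR libraries (limma adjusted p = 0.202). VASH1-AS1 (chr14:76781733-76786724, minus strand) had 4.78 and 4.86 FPKM in shARID1A libraries against 2.68 and 2.98 FPKM in CTR libraries (log2 change 0.60, SE 0.0791, limma adjusted p = 0.0064). VASH1, which encodes the tubulin-trimming enzyme vasohibin 1, had 8.46 and 8.12 FPKM in shARID1A libraries against 7.63 and 7.46 FPKM in CTR libraries (limma adjusted p = 0.159), and 56.7% of VASH1-AS1 exon bases lie in its exons. GPRC5D-AS1 (chr12:12927726-12984645, plus strand), which spans the gene of an orphan receptor of plasma cells, had 19.6 and 15.6 FPKM in shARID1A libraries against 11.7 and 11.5 FPKM in CTR libraries (log2 change 0.55, SE 0.11, limma adjusted p = 0.0196). GPRC5D, at 0.966 and 0.874 FPKM in shARID1A libraries and 0.594 and 0.471 FPKM in CTR libraries, was below the tested range. The GPRC5D-AS1 call was lost without CTR replicate 1 (adjusted p = 0.0955) or CTR replicate 2 (0.102), and the others of this paragraph held without any one library.

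The other 5 of the 10 largest rises ran head to head with a partner that rose with them. ADIRF-AS1 (chr10:86965345-86971311, minus strand) had 5.25 and 4.90 FPKM in shARID1A libraries against 2.80 and 2.92 FPKM in CTR libraries, and was 1.78-fold higher in the means (log2 change 0.65, SE 0.0754, limma adjusted p = 0.00471). ADIRF, adipogenesis regulatory factor, had 1314 and 1329 FPKM in shARID1A libraries against 565 and 566 FPKM in CTR libraries (log2 change 1.22, limma adjusted p = 0.000264). At these levels the partner was 238-fold above the antisense RNA over the 4 libraries, and 16% of ADIRF-AS1 exon bases lie in ADIRF exons. NR2F2-AS1 (chr15:96110040-96327361, minus strand) had 3.34 and 3.21 FPKM in shARID1A libraries against 1.59 and 1.79 FPKM in CTR libraries (log2 change 0.67, SE 0.091, limma adjusted p = 0.00709). NR2F2, the nuclear receptor COUP-TFII, had 32.0 and 32.4 FPKM in shARID1A libraries against 16.1 and 14.9 FPKM in CTR libraries (log2 change 1.01, limma adjusted p = 0.000735). Neither gene overlapped between groups, and their exons share no bases. SSTR5-AS1, whose promoter is shown above, had 2.23 and 2.26 FPKM in shARID1A libraries against 1.19 and 0.814 FPKM in CTR libraries (log2 change 0.70, SE 0.13, limma adjusted p = 0.0163). SSTR5, a somatostatin receptor, had 12.3 and 14.1 FPKM in shARID1A libraries against 8.61 and 7.90 FPKM in CTR libraries (log2 change 0.62, limma adjusted p = 0.00699). Both rose in every shARID1A library. PPP1R26-AS1 (chr9:135462727-135480777, minus strand) had 3.75 and 2.84 FPKM in shARID1A libraries against 1.98 and 1.91 FPKM in CTR libraries (log2 change 0.54, SE 0.128, limma adjusted p = 0.032), while its partner PPP1R26, a regulatory subunit of protein phosphatase 1, had 25.9 and 26.5 FPKM in shARID1A libraries against 15.4 and 15.8 FPKM in CTR libraries (log2 change 0.72, limma adjusted p = 0.00108). ZNF561-AS1 had 3.35 and 4.29 FPKM in shARID1A libraries against 1.90 and 1.72 FPKM in CTR libraries (log2 change 0.77, SE 0.124, limma adjusted p = 0.0111). ZNF561, a zinc finger protein, had 19.6 and 18.7 FPKM in shARID1A libraries against 16.4 and 15.3 FPKM in CTR libraries (log2 change 0.26, limma adjusted p = 0.0247). Only 1.29% of ZNF561-AS1 exon bases lie in ZNF561 exons, but 54.1% lie in exons of other genes, chiefly ZNF562, so its level is uncertain.

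Leaving out a library did not end the calls of ADIRF-AS1, NR2F2-AS1 and their partners, nor that of PPP1R26. The SSTR5-AS1 call was lost without CTR replicate 2 (limma adjusted p = 0.0573), shARID1A replicate 1 (0.0601) or shARID1A replicate 2 (0.062), and the SSTR5 call without CTR replicate 2 (0.0534). The PPP1R26-AS1 call was lost without CTR replicate 1 (0.114), CTR replicate 2 (0.129) or shARID1A replicate 1 (0.0817). The ZNF561-AS1 call was lost without CTR replicate 1 (0.0578) or CTR replicate 2 (0.0693), and the ZNF561 call in all 4 cases (0.0633 to 0.117).

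**Figure D3:**
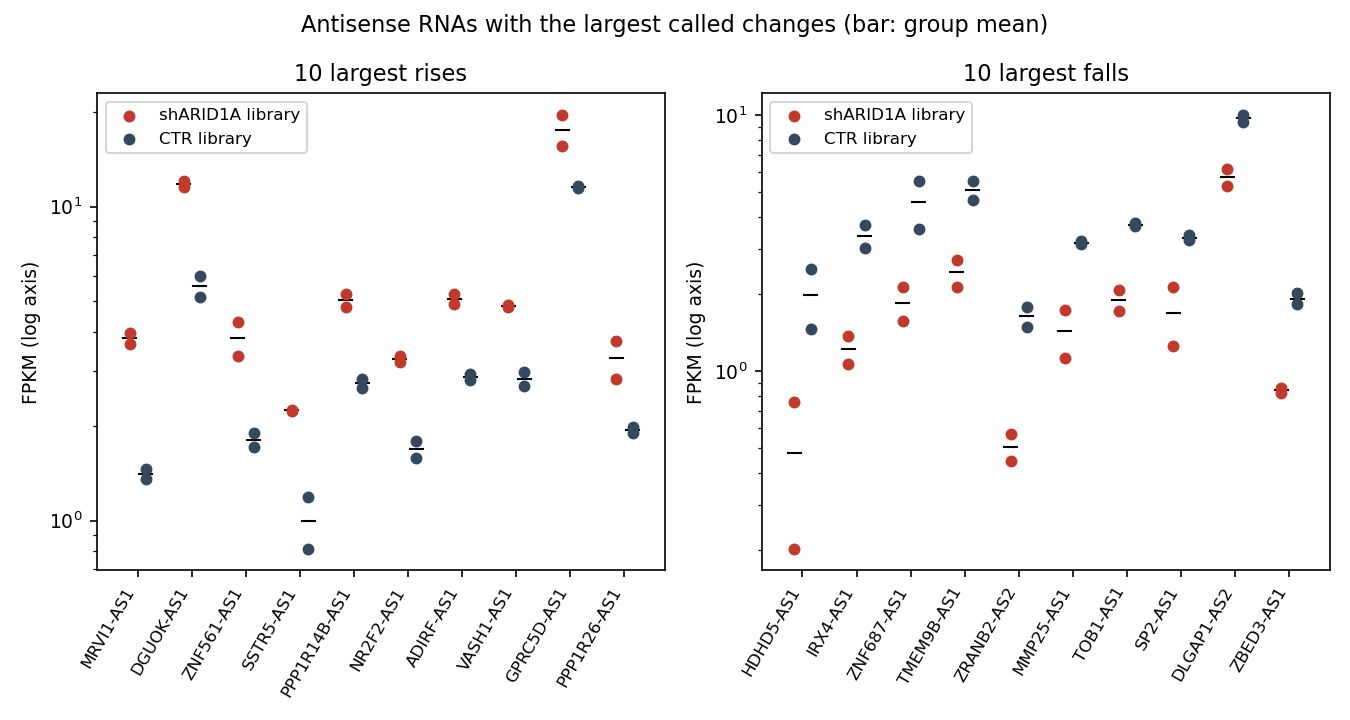
FPKM (vertical, log axis) of the 10 called antisense RNAs with the largest rises and the 10 with the largest falls, with shARID1A libraries left of CTR libraries for each RNA, points for libraries and bars for group means. MRVI1-AS1 shows 3.96 and 3.66 FPKM in shARID1A libraries above 1.46 and 1.36 FPKM in CTR libraries, and the groups do not overlap for any of the 20.

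Of the 10 largest falls, IRX4-AS1 (chr5:1883966-1884649, plus strand) was the one that held without any one library. It lies inside IRX4, an Iroquois homeobox gene of the heart ventricle, and had 1.07 and 1.38 FPKM in shARID1A libraries against 3.04 and 3.75 FPKM in CTR libraries. Both shARID1A libraries were below both CTR libraries (log2 change -0.98, SE 0.132, limma adjusted p = 0.00686). IRX4 had 5.85 and 6.17 FPKM in shARID1A libraries against 6.97 and 7.0 FPKM in CTR libraries (log2 change -0.19, limma adjusted p = 0.067). TMEM9B-AS1 (chr11:8964510-8977527, plus strand) had 2.14 and 2.73 FPKM in shARID1A libraries against 5.54 and 4.65 FPKM in CTR libraries (log2 change -0.83, SE 0.127, limma adjusted p = 0.00978). Its head-to-head partner TMEM9B, a lysosomal membrane protein, had 35.1 and 34.0 FPKM in shARID1A libraries and 34.3 and 34.1 FPKM in CTR libraries, so that the groups overlapped (limma adjusted p = 0.795). DLGAP1-AS2 (chr18:3603000-3608336, plus strand), inside the gene of a postsynaptic scaffold protein, had 6.18 and 5.31 FPKM in shARID1A libraries against 10.0 and 9.43 FPKM in CTR libraries (log2 change -0.67, SE 0.0845, limma adjusted p = 0.00581), with DLGAP1 at most 0.271 FPKM. MMP25-AS1 (chr16:3037400-3059370, minus strand) had 1.74 and 1.12 FPKM in shARID1A libraries against 3.14 and 3.23 FPKM in CTR libraries (log2 change -0.79, SE 0.147, limma adjusted p = 0.0161). The metalloproteinase MMP25 had 1.60 and 1.37 FPKM in shARID1A libraries and 1.45 and 0.862 FPKM in CTR libraries, with overlap (limma adjusted p = 0.362). SP2-AS1 (chr17:47897330-47941410, minus strand) had 1.25 and 2.14 FPKM in shARID1A libraries against 3.42 and 3.25 FPKM in CTR libraries (log2 change -0.70, SE 0.177, limma adjusted p = 0.0359), while SP2, a transcription factor of the Sp family, had 10.3 and 9.98 FPKM in shARID1A libraries against 10.7 and 10.9 FPKM in CTR libraries (limma adjusted p = 0.268).

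The calls of TMEM9B-AS1 and DLGAP1-AS2 were lost without CTR replicate 1 (limma adjusted p = 0.0615 and 0.0508). That of MMP25-AS1 was lost without CTR replicate 1 (0.0815) or CTR replicate 2 (0.0869). That of SP2-AS1 was lost without CTR replicate 1 (0.145), CTR replicate 2 (0.13) or shARID1A replicate 1 (0.0522), and in the last case the log2 change was -0.46. Also among the 10 kept without any one library were PRKAG2-AS1, with 2.70 and 2.50 FPKM in shARID1A libraries against 4.40 and 4.44 FPKM in CTR libraries (log2 change -0.59, limma adjusted p = 0.00624), and WARS2-AS1, with 5.47 and 5.14 FPKM in shARID1A libraries against 8.34 and 8.04 FPKM in CTR libraries (log2 change -0.54, limma adjusted p = 0.00477). Both run head to head with their partners, the AMP kinase subunit gene PRKAG2 (limma adjusted p = 0.0905) and the mitochondrial tryptophanyl-tRNA synthetase gene WARS2 (limma adjusted p = 0.938), neither of which passed the test.

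Partners, taken as genes of their own, had 65 of 152 called (42.8%), 38 up and 27 down, against the 37.1% of all features. In 154 pairs both genes were tested, and 21 pairs had both called. Of these, 7 pairs rose together, 6 fell together and 8 went opposite ways, counts that are 7, 5 and 6 over antisense RNAs at 1 FPKM or more in both groups. In 19 pairs the antisense RNA was called and the partner not, 7 of these antisense RNAs up and 12 down, and in 46 the partner alone was called. In 68 pairs neither was.

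All 7 pairs that rose together were head to head, but only 2 of them had starts within 1000 bp. GATA2-AS1 and NR2F1-AS1 complete the 7. GATA2-AS1 (chr3:128489212-128502970, plus strand) had 15.7 and 14.8 FPKM in shARID1A libraries against 11.8 and 13.1 FPKM in CTR libraries (log2 change 0.27, limma adjusted p = 0.0366). GATA2, a transcription factor best known from blood progenitors, had 20.7 and 22.8 FPKM in shARID1A libraries against 9.10 and 9.45 FPKM in CTR libraries (log2 change 1.15, limma adjusted p = 0.000901). NR2F1-AS1 (chr5:93360779-93585649, minus strand) had 17.4 and 19 FPKM in shARID1A libraries against 13.4 and 15.2 FPKM in CTR libraries (log2 change 0.33, limma adjusted p = 0.0344). NR2F1, the nuclear receptor COUP-TFI, had 65.6 and 65 FPKM in shARID1A libraries against 29.9 and 30.8 FPKM in CTR libraries (log2 change 1.08, limma adjusted p = 0.000363). In both pairs the partner moved more than the antisense RNA on this scale, and both antisense calls were lost whichever library was left out (limma adjusted p 0.0663 to 0.142 for GATA2-AS1 and 0.0591 to 0.134 for NR2F1-AS1), while the partner calls held.

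The 6 pairs that fell together were also head to head, 5 of them with starts within 1000 bp. USP46-AS1, whose shared promoter is shown above, had 1.24 and 1.07 FPKM in shARID1A libraries against 2.29 and 2.40 FPKM in CTR libraries (log2 change -0.64, SE 0.103, limma adjusted p = 0.0111). USP46, a deubiquitinase, had 14.8 and 15.8 FPKM in shARID1A libraries against 31.4 and 33.3 FPKM in CTR libraries (log2 change -1.03, limma adjusted p = 0.000887). Neither gene overlapped between groups, and the exons of the pair share no bases. ZBED3-AS1 (chr5:77086688-77166909, plus strand) had 0.827 and 0.860 FPKM in shARID1A libraries against 1.83 and 2.02 FPKM in CTR libraries (log2 change -0.67, SE 0.106, limma adjusted p = 0.011), and reached 1 FPKM in CTR libraries alone, so its fall is partly set by the choice. ZBED3, an axin-binding protein of the Wnt pathway, had 2.16 and 1.96 FPKM in shARID1A libraries against 4.99 and 4.17 FPKM in CTR libraries (log2 change -0.86, limma adjusted p = 0.0055). ZNF503-AS2 had 2.04 and 2.14 FPKM in shARID1A libraries against 3.06 and 3.25 FPKM in CTR libraries (log2 change -0.43, limma adjusted p = 0.0192), and ZNF503, a zinc finger repressor, 17.5 and 18.0 FPKM in shARID1A libraries against 23.2 and 22.2 FPKM in CTR libraries (log2 change -0.34, limma adjusted p = 0.0078). LOXL1-AS1 had 7.18 and 7.48 FPKM in shARID1A libraries against 8.54 and 9.68 FPKM in CTR libraries (log2 change -0.28, limma adjusted p = 0.0451), and LOXL1, an elastin cross-linking enzyme, 8.05 and 6.51 FPKM in shARID1A libraries against 11 and 9.98 FPKM in CTR libraries (log2 change -0.48, limma adjusted p = 0.0278). The remaining pairs are OTUD6B-AS1 with OTUD6B, given above, and THAP9-AS1 with THAP9, which had 1.54 and 1.64 FPKM in shARID1A libraries against 2.74 and 2.23 FPKM in CTR libraries (log2 change -0.42, limma adjusted p = 0.0421). Without single libraries the call of USP46-AS1 was lost without CTR replicate 1 (0.0567) or CTR replicate 2 (0.0643), that of ZBED3-AS1 without CTR replicate 2 (0.0615), that of ZNF503 without CTR replicate 1 (0.0583), and that of LOXL1 in every case but the one without shARID1A replicate 1 (0.0736 to 0.133). The calls of ZNF503-AS2, LOXL1-AS1 and THAP9 were lost in all 4 cases (0.059 to 0.09, 0.0626 to 0.162 and 0.0645 to 0.143), and those of USP46 and ZBED3 in none.

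Pairs that went opposite ways held 2 in which the antisense RNA rose. MRVI1-AS1 rose as given above, while MRVI1 fell, with 1.17 and 1.20 FPKM in shARID1A libraries against 2.32 and 1.95 FPKM in CTR libraries (log2 change -0.52, limma adjusted p = 0.0229). The pair is tail to tail, and 15.6% of the antisense exon bases lie in MRVI1 exons. VPS9D1-AS1 (chr16:89711856-89718165, plus strand), which lies inside VPS9D1 and has been described in colorectal tumours, had 16.5 and 18.3 FPKM in shARID1A libraries against 14 and 12.7 FPKM in CTR libraries (log2 change 0.36, SE 0.0762, limma adjusted p = 0.0237). VPS9D1 had 2.51 and 1.99 FPKM in shARID1A libraries against 3.52 and 3.53 FPKM in CTR libraries (log2 change -0.48, limma adjusted p = 0.0264). The MRVI1 call was lost in all 4 cases (0.0572 to 0.0936), and the calls of VPS9D1-AS1 and VPS9D1 in every case but the one without shARID1A replicate 1 (0.0645 to 0.113 and 0.076 to 0.111).

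In the other 6 opposite pairs the antisense RNA fell and the partner rose. UNC5B-AS1 (chr10:71217224-71218228, minus strand), inside the gene of a netrin receptor and sharing no exon bases with it, had 4.52 and 4.61 FPKM in shARID1A libraries against 6.28 and 8.51 FPKM in CTR libraries (log2 change -0.58, SE 0.138, limma adjusted p = 0.0312). UNC5B had 14.9 and 15.1 FPKM in shARID1A libraries against 9.99 and 9.65 FPKM in CTR libraries (log2 change 0.57, limma adjusted p = 0.00232). TOB1-AS1 (chr17:50866679-50910774, plus strand) had 2.08 and 1.73 FPKM in shARID1A libraries against 3.79 and 3.69 FPKM in CTR libraries (log2 change -0.71, SE 0.0979, limma adjusted p = 0.00742). TOB1, an antiproliferative protein that recruits a deadenylase, had 91.0 FPKM in both shARID1A libraries against 70.1 and 69.9 FPKM in CTR libraries (log2 change 0.37, limma adjusted p = 0.00241). In both pairs neither gene overlapped between groups. ZNF687-AS1 (chr1:151279678-151281950, minus strand) had 2.13 and 1.58 FPKM in shARID1A libraries against 3.61 and 5.55 FPKM in CTR libraries (log2 change -0.95, SE 0.202, limma adjusted p = 0.0233), and ZNF687, a zinc finger protein, 11.6 and 12.1 FPKM in shARID1A libraries against 8.58 and 9.06 FPKM in CTR libraries (log2 change 0.39, limma adjusted p = 0.00838). HDHD5-AS1 (chr22:17159384-17165445, plus strand) had 0.203 and 0.758 FPKM in shARID1A libraries against 1.47 and 2.50 FPKM in CTR libraries (log2 change -1.02, SE 0.265, limma adjusted p = 0.0394), the one member past a log2 change of 1. It was chosen through the CTR libraries alone, with a mean of 0.481 FPKM in shARID1A libraries, so this fall is not independent of the choice. Its partner HDHD5, a hydrolase-like protein, had 46.0 FPKM in both shARID1A libraries against 41.5 and 41.0 FPKM in CTR libraries (log2 change 0.15, limma adjusted p = 0.0296).

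ZRANB2-AS2, whose promoter is shown above, had 0.445 and 0.571 FPKM in shARID1A libraries against 1.79 and 1.49 FPKM in CTR libraries (log2 change -0.81, SE 0.129, limma adjusted p = 0.0109). ZRANB2, a splicing factor, had 43.5 and 41.4 FPKM in shARID1A libraries against 36.2 and 37.6 FPKM in CTR libraries (log2 change 0.20, limma adjusted p = 0.0299). This antisense RNA too was chosen through the CTR libraries alone (mean 0.508 FPKM in shARID1A libraries), so its fall is given as a description. ELOA-AS1 (chr1:23706901-23778296, minus strand) had 2.07 and 1.73 FPKM in shARID1A libraries against 2.70 and 2.71 FPKM in CTR libraries (log2 change -0.36, limma adjusted p = 0.0479), and ELOA, the elongation factor elongin A, 12.7 FPKM in both shARID1A libraries against 9.39 and 9.58 FPKM in CTR libraries (log2 change 0.38, limma adjusted p = 0.00587). As 57.2% of ELOA-AS1 exon bases lie in ELOA exons, the 2 values are not separate measurements.

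Over these 6 pairs, the calls of UNC5B, TOB1 and ELOA held without any one library. The antisense call was lost for TOB1-AS1 without CTR replicate 1 (limma adjusted p = 0.0544) or 2 (0.0509), and for ZRANB2-AS2 without CTR replicate 1 (0.0604). For UNC5B-AS1 and ZNF687-AS1 it was lost in every case but the one without CTR replicate 1 (0.0638 to 0.108 and 0.0535 to 0.0958), for HDHD5-AS1 in every case but the one without shARID1A replicate 2 (0.0695 to 0.158), and for ELOA-AS1 in all 4 cases (0.0602 to 0.154). The HDHD5 and ZRANB2 calls were lost in all 4 cases (0.0837 to 0.138 and 0.053 to 0.142), and the ZNF687 call without CTR replicate 1 (0.058) or shARID1A replicate 2 (0.0502).

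How a pair lies on the chromosome was read from the loci of the authors' tables and the strands of GENCODE release 29 or RefSeq. No limit was set on the distance between the starts of a pair. Of 185 pairs, 93 were head to head, 20 with loci apart and 73 with the 5′ ends overlapping. Another 46 were tail to tail, 44 of these overlapping, 26 antisense RNAs lay inside the partner and 19 contained it, and for LMNTD2-AS1 no strand was found. Head-to-head antisense RNAs had 9 called rises and 18 called falls among 93 (median log2 change -0.048). The other opposite-strand arrangements had 10 rises and 9 falls among 91 (median -0.043). Of all tested features, 18.2% were called up and 18.9% down. The head-to-head falls were near that share, and the other counts were below it. Across the 84 head-to-head pairs with a tested partner, the log2 changes of antisense RNA and partner had a Pearson r of 0.378 and a Spearman rho of 0.323, and 56 (66.7%) shared a sign. Of these 84, 17 had both genes called, 13 in the same direction and 4 in opposite directions. Across the 69 other pairs r was -0.176 and rho -0.158, 32 (46.4%) shared a sign, and the 4 pairs with both genes called all went opposite ways. These figures are across genes of the same 4 libraries, which are not independent replicates, and the difference between arrangements was not tested.

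**Figure D4:**
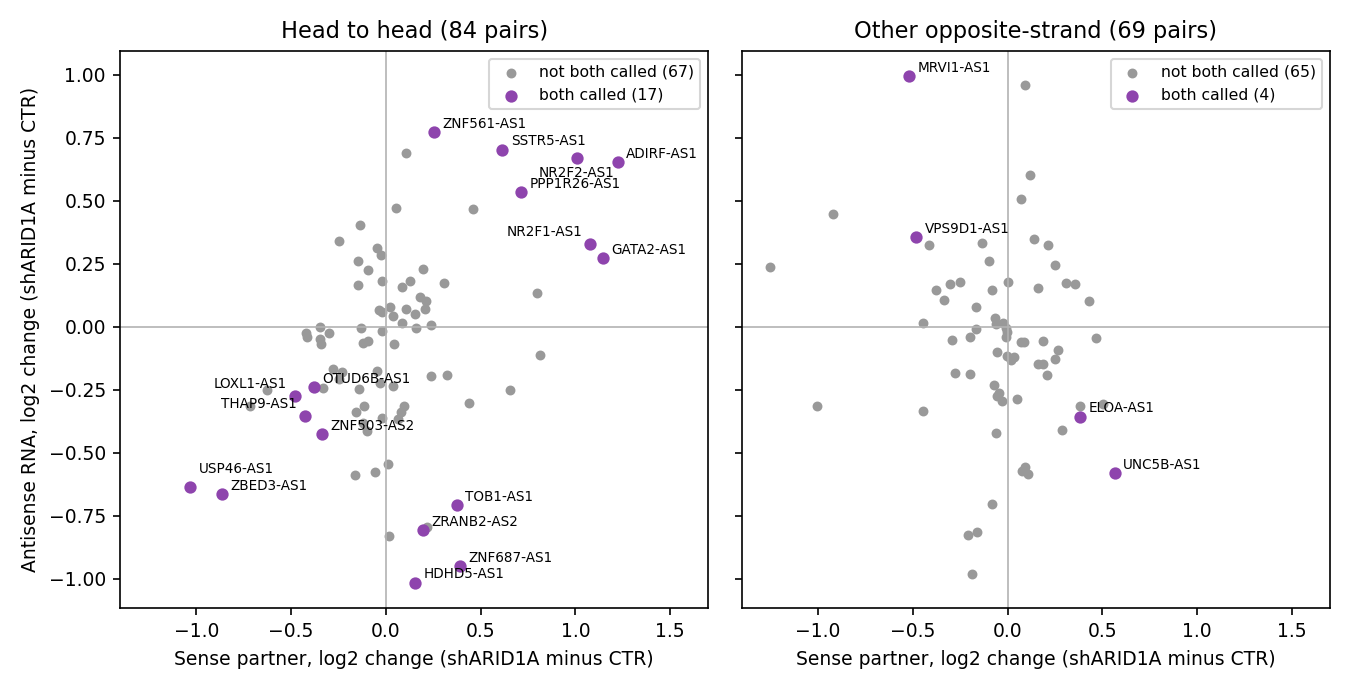
Log2 change, shARID1A minus CTR, of each antisense RNA (vertical) against its sense partner (horizontal), for 84 head-to-head pairs on the left and 69 pairs in other arrangements on the right, 1 point a pair. Purple points are pairs with both genes called, 17 on the left, of which 13 lie in the same-direction quadrants, and 4 on the right, all in the opposite-direction quadrants. They include ZBED3-AS1, ZRANB2-AS2 and HDHD5-AS1, whose falls are partly set by the choice of members.

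Shared exon bases are where reads cannot be assigned without strand. The 53 pairs with at least 10% of antisense exon bases inside partner exons had an r of 0.068, and the 90 pairs below 10% an r of 0.248. Within those 90, the 42 pairs with no shared exon bases had an r of 0.294. Starts lay a median of 12810 bp apart in the 53 pairs and 1294 bp in the 42. Exon sharing and distance between starts therefore cannot be told apart here, and the difference in r was not tested. In 57 head-to-head pairs with starts within 1000 bp, r was 0.288 and 35 (61.4%) shared a sign. Where the partner was more than 10-fold above the antisense RNA (52 pairs), r was 0.216.

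RefSeq promoter windows were found for 149 of the 187 antisense RNAs. Their median content was 64.3% G and C with 24 CpG sites in 300 bases, near the 65% and 25 sites of 14418 promoters of tested features and above the 58.7% and 14 sites of all 35116 promoters. The 51 antisense RNAs that start head to head within 1000 bp of the partner had 68.0% and 27 sites. On both strands, TATAAA was found in 5.37% of antisense windows, 5.87% of tested and 11.5% of all windows. CCGGAAG, a core of ETS-family sites, was found in 18.8% of antisense windows (28), 17.2% of tested and 10.3% of all windows. Another motif, the palindromic site of the factor NRF1, was found in 4.03% of antisense windows (6), 1.94% of tested and 1.24% of all windows, and in 7.84% (4) of the 51 close head-to-head windows, differences that were not tested. A match is a description of the letters and does not show that a factor binds.

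A few antisense RNAs, picked out after their values were seen, had 1 library that stood apart within its group. They were not called in the fit used throughout, but were called when a library was left out. LIPE-AS1 had 7.52 and 2.02 FPKM in shARID1A libraries and 8.65 and 7.26 FPKM in CTR libraries. It was not called over 4 libraries (limma adjusted p = 0.252), but was without shARID1A replicate 1 (log2 change -1.56, adjusted p = 0.0118). LMNTD2-AS1 had 1.61 and 3.08 FPKM in shARID1A libraries and 0.873 and 0.918 FPKM in CTR libraries (limma adjusted p = 0.0537), with a log2 change of 1.11 without shARID1A replicate 1 (adjusted p = 0.0165). It reached 1 FPKM in shARID1A libraries alone. RNF185-AS1, all of whose exon bases lie in RNF185 exons, had 6.88 and 3.70 FPKM in shARID1A libraries and 8.88 and 10.8 FPKM in CTR libraries (limma adjusted p = 0.0638), with a log2 change of -1.20 without shARID1A replicate 1 (adjusted p = 0.0177). In these 3 RNAs the library farthest from the CTR libraries was shARID1A replicate 2, below them for LIPE-AS1 and RNF185-AS1 and above them for LMNTD2-AS1. RNF185 had 10.9 and 11.7 FPKM in shARID1A libraries and 13.5 and 13.0 FPKM in CTR libraries (limma adjusted p = 0.0447), a call lost whichever library was left out (0.0761 to 0.181). FOXP4-AS1 had 3.74 and 4.22 FPKM in shARID1A libraries and 2.89 and 9.80 FPKM in CTR libraries (limma adjusted p = 0.569). Its direction rested on CTR replicate 2, with a log2 change of -1.12 without CTR replicate 1 (adjusted p = 0.0229) and 0.36 without CTR replicate 2 (adjusted p = 0.115).

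The genes that terminate or destroy such transcripts changed in small numbers. Of 39 genes of the nuclear exosome, its adaptors, cap-linked factors and the Integrator complex, 9 were called (23.1%, against 37.1% of all features), 6 up and 3 down, and their median log2 change was 0.065. The exosome genes EXOSC1, EXOSC3 and DIS3, the exosome cofactor MPHOSPH6, the cap-linked factor SRRT and the Integrator subunit INTS8 rose, and EXOSC8, the adaptor RBM7 and INTS7 fell. Without single libraries 3 of the 9 calls held throughout, those of EXOSC8, INTS7 and MPHOSPH6. EXOSC1 and SRRT were lost in all 4 cases (limma adjusted p 0.0517 to 0.117 and 0.0593 to 0.154), RBM7 in every case but the one without shARID1A replicate 2 (0.0922 to 0.166), EXOSC3 without CTR replicate 1 (0.0746) or CTR replicate 2 (0.0573), and DIS3 without CTR replicate 2 (0.0591). EXOSC8, a structural subunit of the exosome ring, had 27.6 and 30.0 FPKM in shARID1A libraries against 54.0 and 49.9 FPKM in CTR libraries. Both shARID1A libraries were near the same low level (log2 change -0.83, SE 0.0629, limma adjusted p = 0.0017). INTS8 had 68.1 and 75.6 FPKM in shARID1A libraries against 50.8 and 51.9 FPKM in CTR libraries (log2 change 0.48, limma adjusted p = 0.0058), a call lost without CTR replicate 1 (0.0523). INTS7 had 8.09 and 7.86 FPKM in shARID1A libraries against 11.4 and 10.9 FPKM in CTR libraries (log2 change -0.43, limma adjusted p = 0.00588). No relation of these genes to the antisense RNAs was tested.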

How the data were processed

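Per the labels' protocols, 2 shARID1A and 2 CTR samples of total RNA went into NEBNext Ultra RNA libraries. FPKM was deposited by the authors for each library, by symbol and locus on GRCh38, with STAR and Cufflinks named in the submitters' processing notes. Versions, annotation release, strand setting and filters are not stated in these sources. Each table had 60811 rows. Dropping the 45 Y copies of pseudoautosomal genes left 60766 features, and 2347 values under 1e-09 were set to 0.

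FPKM values are not counts, so limma 3.58.1 in R 4.3.3 (lmFit, eBayes with a trend) was fitted to log2(FPKM + 1) of all 13605 features with a mean of at least 1 FPKM, as shARID1A minus CTR, two-sided, with Benjamini-Hochberg adjustment over all of them. A gene was called at an adjusted p under 0.05. A log2 change on this scale understates the change of faint genes. The fit was tested on simulated data with 200 of 13605 features altered, in 5 runs. It recovered 3.2% of features shifted 0.25 on the log2 scale, 34.8% of those shifted 0.5, 67.6% of those shifted 1 and 90.4% of those shifted 2, and 2.97% of its calls were false. The share altered there was far below the 37.1% called in the data, so these figures need not carry over.

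Depth was estimated from low FPKM values of 4875 genes with 1 transcript. With the totals given, 77.4% to 79.5% of them were whole fragments within 0.1, against 21.8% to 26.0% with gene lengths permuted. The totals and a length correction were picked to make the first share largest, and permuted lengths were scored at those settings only. The comparison therefore favours the true lengths. The share with true lengths is too low to recover reads, so no count model was run. Partners were found by the prefix symbol alone. Strand was found for 186 of 187 antisense RNAs, from GENCODE release 29 or RefSeq, and exons for 176, from GENCODE release 29 alone. Of the loci, 102 were identical to that release, so the authors used another annotation. The members and gene lists were chosen with earlier results of these data known.

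Values in every library are given for the 10 members of highest mean, the 10 largest called rises and 10 largest called falls, members whose partner was called the other way, and the partners of all these. Pairs called in the same direction, and other members, were added after their values were seen. Alternatives were other pseudocounts, filters, scalings, no trend, a replicate term and leaving out each library. Same-numbered libraries of the groups did not deviate together (correlation -0.009928 over features).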

Additional observations from a re-analysis of the deposited data

How the results depend on the processing

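The counts of calls depend on the filter and on the number of libraries. Without a filter on level, calls over all features numbered 2786 in place of 5046, antisense calls 15 in place of 47 and partner calls 35 in place of 65; more features are then tested. With 1 library left out, the calls numbered 1900 to 3259 over all features, 14 to 30 antisense RNAs, 30 to 42 partners and 4 to 7 of the surveillance genes in place of 9, in fits with fewer samples where the lone library is assumed to vary like the other group. ARID1A kept its direction and its call in all 12 alternatives, with log2 changes of -0.76 to -0.60. The median log2 change of the antisense RNAs was 0.013 over the 22 whose locus does not overlap that of the partner, against -0.048 over all. Among the genes whose values in every library were given by rule, signs turned for NUTM2A-AS1, at 0.19 without shARID1A replicate 1 and -0.31 without shARID1A replicate 2. They also turned for TMEM9B, at -0.005 with quantile normalization and -0.007 to 0.037 with 1 library left out. Other members turned too, such as FOXP4-AS1, given above, and STIM2-AS1, at 0.49 without CTR replicate 1 and -1.60 without CTR replicate 2. These others are not listed in full, and the cause was not tested. The replicate numbers pair no samples by any label, and the 2 pairs cannot show a pairing. A replicate block gave 42 antisense, 54 partner and 6 surveillance calls. The antisense RNAs it added were LMNTD2-AS1 (limma adjusted p = 0.0495) and ST3GAL6-AS1 (0.0458). It also called SVIL (log2 change -1.25, limma adjusted p = 0.00466), whose change runs from -2.01 to -0.50 with 1 library left out. The calls that the block ended include those of SVIL-AS1 (0.0633), ELOA-AS1 (0.0774), GATA2-AS1 (0.0669), THAP9 (0.0718), HDHD5 (0.0669) and ZRANB2 (0.0626). Shifts of 0.25 and 0.5 were recovered at 3.2% and 34.8% in the simulation, which altered 200 features where 5046 were called here. Recovery of small changes in these data is therefore not known.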
